A study of Homo sapiens with 24 samples.

Results

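The mitochondrial ribosomal protein genes are the 78 protein-coding genes, of 58174 genes listed and 19799 protein-coding ones, whose symbol is MRPL or MRPS followed by a number and at most 1 letter. All 78 passed the filter on low values in every cell line, so none was lost before testing. They were followed in total RNA sequencing of 4 human cancer cell lines that asked which transcripts change when IGF2BP1, an RNA-binding protein made in the embryo and again in tumors, is depleted. A549 is derived from a lung cancer, ES2 from an ovarian cancer, MV3 from a melanoma and PANC1 from a pancreas cancer. Each line was transfected either with a control siRNA (siC) or with siRNAs directed against IGF2BP1 (siI1), a pool per the methods, and each of the 8 groups has 3 libraries. RNA was harvested 72 h after transfection in A549, ES2 and MV3 and 96 h after it in PANC1, so that line and harvest time cannot be told apart where PANC1 differs. No untransfected cells were analyzed here, and each line is a single culture model of its tumor.

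The mitochondrial ribosome translates the few mRNAs of the mitochondrial genome, which encode core subunits of the respiratory chain and of the ATP synthase. Its RNAs are made in mitochondria, whereas all of its proteins are encoded in the nucleus, translated in the cytosol and imported. It consists of a small subunit, which holds the mRNA and decodes it, and a large subunit, which joins the amino acids. Some proteins descend from the bacterial ribosome and others were added in mitochondria. Symbols follow an older naming, so that MRPS30 and MRPS18A, named for the small subunit, are proteins of the large one (mL65 and mL66), and MRPS36 (KGD4) is a subunit of the oxoglutarate dehydrogenase complex rather than of the ribosome. Of the 78 genes, 51 encode proteins of the large subunit and 26 of the small one.

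Promoter sequence from RefSeq (GRCh38.p14), 250 bases before to 50 bases after the gene start, was matched by symbol for 69 of the 78 genes. It was not matched for MRPL10, MRPL13, MRPL15, MRPL2, MRPL21, MRPL23, MRPL35, MRPS28 and MRPS36. Both strands were searched for 4 strings of letters, each counted on its own even where it overlaps another. The letters AAGATGGCG, the core of the YY1 motif, stood in 13 of the 69 promoters (18.8%), against 2.89% of 14454 protein-coding promoters and 9.23% of 65 promoters of cytosolic ribosomal proteins. In 10 of the 69 (14.5%) they stood on the strand of the gene and after its start, against 1.88% of protein-coding promoters. The windows of 30 bases around this string are shown for the 3 genes that carry it and fell in 3 or 4 lines, MRPS10, MRPS30 and MRPS18A. They are also shown for 3 that carry it and were called in no line, MRPS18B, MRPS24 and MRPL46. MRPS24 was among the 3 members of lowest siC level in every line, MRPS18B in A549 and MV3, and MRPL46 in PANC1. Changes at low levels are more easily missed, so these 3 are not a contrast in response. Capitals mark the string, and each line gives the position and the strand read.
MRPS10, chr6:42217833-42217862, minus strand: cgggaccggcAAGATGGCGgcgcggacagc
MRPS30, chr5:44808950-44808979, plus strand: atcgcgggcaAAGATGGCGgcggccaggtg
MRPS18A, chr6:43687763-43687792, minus strand: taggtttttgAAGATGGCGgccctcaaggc
MRPS18B, chr6:30617853-30617882, plus strand: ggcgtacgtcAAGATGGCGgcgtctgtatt
MRPS24, chr7:43869479-43869508, minus strand: cgcttggcccAAGATGGCGgcctccgtgtg
MRPL46, chr15:88467361-88467390, minus strand: gggagaacgaAAGATGGCGgcgcccgtaag

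The string begins 10 bases after the start in MRPS10 and MRPS18A and 14 bases after it in MRPS30. In MRPL46, MRPS24 and MRPS18B it begins 9, 20 and 24 bases after the start. A match of letters is a description and not a binding site. The remaining strings were counted in the same way. GCGCANGCG, the NRF1 motif, stood in 18.8% of the 69 promoters against 11.3% of protein-coding ones, CCGGAAGT, the ETS motif, in 15.9% against 6.41%, and CACGTG, the E-box, in 8.70% against 8.99%. In the 65 promoters of cytosolic ribosomal proteins the shares were 10.8% (NRF1), 15.4% (ETS) and 6.15% (E-box). The ETS share was thus near that of the members.

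The knockdown was visible in every library. IGF2BP1 stood at 39.6 to 39.8 FPKM in siC and at 15.2 to 16.4 FPKM in siI1 libraries of A549, and it fell in all 4 lines (log2 fold change -1.32 for A549, -1.55 for ES2, -1.52 for MV3, -1.83 for PANC1). FPKM are reads relative to the length of the gene and the size of the library. Libraries held 3105215 to 4553326 reads in genes in A549, 6421764 to 8419467 in ES2, 15572492 to 20082702 in MV3, and 6532175 to 8472851 for PANC1. The median standard error of the members' log2 fold change was 0.09 for A549, 0.07 for ES2, 0.05 for MV3 and 0.09 for PANC1. Every member called in a line had at least 50 reads in each A549 library, and at least 94 (ES2), 207 (MV3) and 118 (PANC1) in those of the other lines. The lineage markers were detected in part. All 6 of PANC1 and 4 of 6 of A549 passed the filter, but SOX10, TYR and S100B were at 0 in every MV3 library and none of the 6 melanoma genes passed there, and in ES2 only KRT8 and VIM of 6 passed. In PANC1 the noncoding RN7SL2 took 50.1 to 56.2% of all FPKM in siC and 62.0 to 64.6% in siI1 libraries, and the sum of all FPKM was higher in each siI1 library, which makes this line depend on the scaling, as given beside its values. The tables list 0 in every library for the 37 mitochondrially encoded genes, so the RNAs that this ribosome contains and translates could not be followed.

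In control cells the members were expressed at moderate and similar levels. Their median level was 14.2 FPKM for A549, 18.2 for ES2, 17.6 for MV3 and 13.5 for PANC1, with the tables of the lines normalized separately by the authors. On the same per-length scale the protein-coding genes tested had medians from 6.27 to 7.32 FPKM, the nuclear subunits of oxidative phosphorylation from 18.2 to 25.1 and the cytosolic ribosomal proteins from 103 to 185. Although the products are parts of 1 particle, the levels within a line spread 62.9-fold in A549, 90.1-fold in ES2, 108-fold in MV3 and 88.2-fold in PANC1. MRPS34, a mitochondria-specific protein of the small subunit, was highest in A549 (67.1 FPKM) and MV3 (110.7), MRPL15, the homolog of bacterial L15, in ES2 (126.5), and MRPS12, the homolog of bacterial S12 at the decoding site, in PANC1 (124.1). MRPL38 and MRPS24 were lowest, at 1.02 to 1.41 FPKM in the line where each came last. Order was kept between lines: Spearman's rho over the 78 siC levels lay between 0.864 and 0.920 for the 6 pairs of lines, as a description across genes that share length and sequence.

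After knockdown many members fell in ES2 and MV3 and almost none rose. In ES2, 33 of 78 were lower and 1 was higher at an adjusted p under 0.05, where 13.0% of all genes tested were lower and 10.5% higher. In MV3, 36 were lower and 1 was higher, where 19.5% of all genes were lower and 16.3% higher. The members' shares were thus 42.3% and 46.2% lower and 1.28% higher in each line. Against protein-coding genes alone, which are detected at higher levels, 17.9% were lower in ES2 and 26.8% in MV3. The falls were small: the median log2 fold change of the 78 was -0.21 in ES2 and -0.19 in MV3, with medians of all genes at -0.02 and 0.01. Of the 78, 64 lay below 0 in ES2 and 63 in MV3. For each called member the siC and siI1 libraries did not overlap. The calls were made on these same values, so this adds no support of its own.

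**Figure D1:**
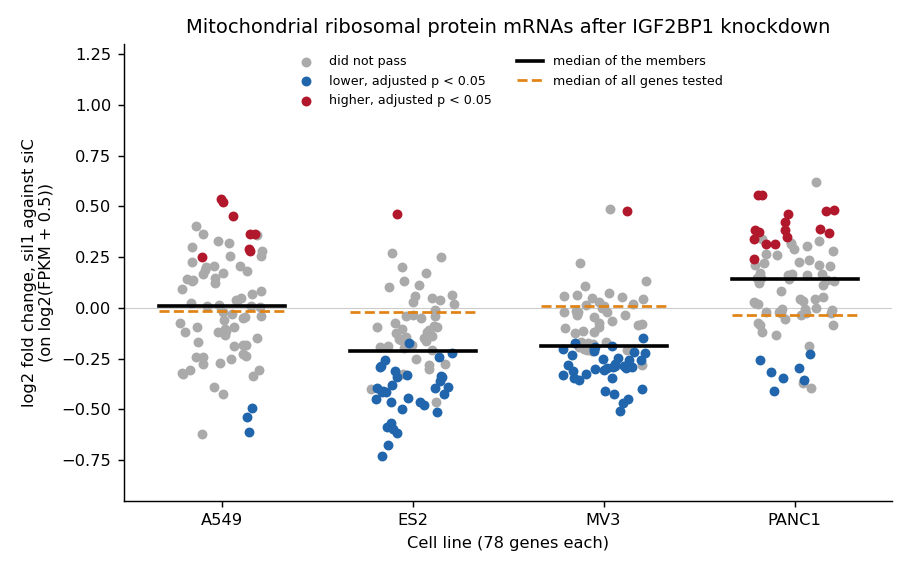
Log2 fold change of each of the 78 genes (siI1 against siC, vertical axis) in the 4 cell lines, with blue and red points for genes that passed the test, a black bar for the median of the 78 and a dashed bar for the median of all genes tested. The black bar lies at -0.21 in ES2 and -0.19 in MV3, near 0 in A549 and at 0.14 in PANC1.

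A549 and PANC1 did not show this fall. In A549, 3 members were lower and 8 higher, against 7.83% and 5.93% of all genes, and the median log2 fold change was 0.01. The 8 higher members were fewer with any 1 library left out: leaving out 1 siC library left 3 to 5 (3 without replicate 1, 5 without replicate 2, 4 without replicate 3), and leaving out any of the 3 siI1 libraries left 2. Fits with 1 library fewer also called fewer of all genes higher, 2.85 to 4.13%. In PANC1, 7 members were lower and 16 higher, against 13.4% and 11.3% of all genes, and the median was 0.14 with all genes at -0.04. The 16 fell to 7 without siC replicate 1, 8 without siC replicate 3, 7, 6 and 8 without siI1 replicates 1, 2 and 3, and stood at 22 without siC replicate 2. The 7 lower ones fell to 1 without siC replicate 1, to 2, 3 and 2 without siI1 replicates 1, 2 and 3, and to 5 otherwise. Of all genes, 11.9% were higher and 12.3% lower without siC replicate 2. In the other fits with 1 library left out 6.59 to 8.07% were higher and 7.84 to 9.70% lower.

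**Figure D2:**
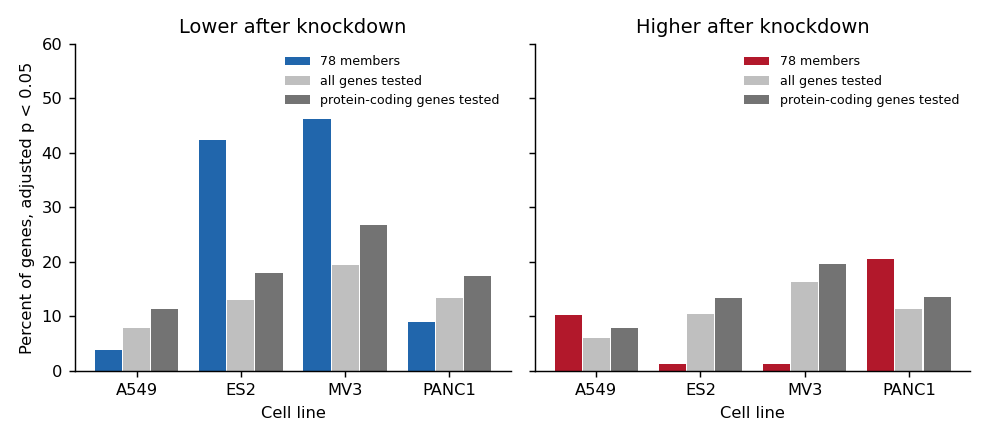
Percent of genes lower (left) or higher (right) after knockdown at an adjusted p under 0.05, by cell line, for the 78 members (colored bars), all genes tested (light gray) and protein-coding genes tested (dark gray). The members' bars stand at 42.3% and 46.2% lower in ES2 and MV3 and at 20.5% higher in PANC1.

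How a library is scaled moves these counts, and the distance of the members from all genes less so. With every library of a line rescaled to the same sum of FPKM over protein-coding genes, an alternative chosen after seeing the data, the median of all genes shifted from -0.02 to 0.11 in ES2 and from 0.01 to 0.13 in MV3. The members were then 22 lower and 6 higher in ES2, where 7.65% of all genes were lower and 17.3% higher. In MV3 they were 18 lower and 11 higher, where 11.5% of all genes were lower and 26.9% higher. Relative to the median of all genes the members' median lay at -0.19 in ES2 and -0.20 in MV3 as first scaled, and at -0.18 and -0.19 after rescaling. With the same sum over all genes, which includes RN7SL2, PANC1 turned to 56 lower (71.8%) and 0 higher, against 54.6% of all genes lower and 0.591% higher, while the median of all genes moved from -0.04 to -0.68, and A549 turned to 6 lower and 2 higher. The members' median in PANC1 lay above that of all genes by 0.10, against 0.18 as first scaled, although a larger share of members than of all genes was lower. In PANC1 the members' median thus lay above that of all genes under each scaling tried, and above 0 only under the authors' scaling and the protein-coding sum.

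The summed reads of the 78 genes, as a share of all reads in genes and with no further scaling, gave the same order in ES2 and MV3. In ES2 they made up 4449, 4318 and 4461 of every 1000000 reads in the siC libraries and 3845, 3912 and 3937 in the siI1 libraries. In MV3 they made up 3998, 3947 and 3858 in siC and 3592, 3576 and 3586 in siI1. Both lines were lower in all 3 siI1 libraries, with no overlap. In A549 the 3 siC libraries held 3551, 3526 and 3547, and the 3 siI1 libraries 3556, 3634 and 3594, higher without overlap but by little. In PANC1 the siC libraries held 4246, 4236 and 4019 and the siI1 libraries 4139, 3783 and 4205, which overlap. In RNA from a whole culture, less RNA of this kind per cell and fewer cells that make it cannot be told apart.

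**Figure D3:**
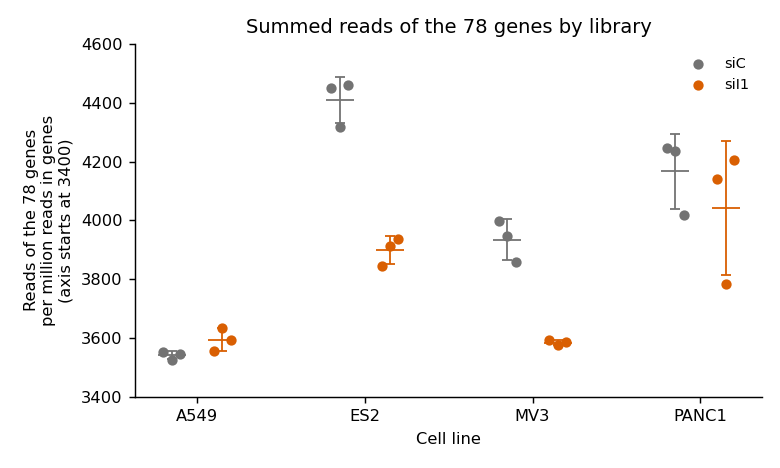
Reads of the 78 genes among 1000000 reads in genes (vertical axis, which does not start at 0) for each library, with points for the 3 libraries of a group and a bar with error for mean and SD. The siI1 points lie below the siC points in ES2 and MV3, and just above them in A549, and in PANC1 the groups overlap, with 1 siI1 library below all siC libraries.

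Proteins of both subunits took part. Of the 51 large-subunit genes, 24 were lower in ES2 and 27 in MV3, and none was higher in either. Of the 26 small-subunit genes, 9 were lower and 1 was higher in each. Under the same protein-coding sum the large subunit had 16 lower and 1 higher in ES2 and 12 and 7 in MV3, and the small subunit 6 and 5 in ES2 and 6 and 4 in MV3. The median was -0.28 (large) and -0.12 (small) in ES2 and -0.20 and -0.12 in MV3. Under the same protein-coding sum the small-subunit medians were 0.02 and 0.01 and the large-subunit ones -0.14 and -0.07. The median of all genes moved as well, from -0.02 to 0.11 in ES2 and from 0.01 to 0.13 in MV3. It lay above the medians of both subunits under either scaling. The difference between the subunits was not tested. In PANC1, 6 large-subunit genes were lower and 11 higher, and 1 and 5 of the small subunit. Proteins of both origins were among those that fell: of 45 proteins with a bacterial homolog, 20 were lower in ES2 and 22 in MV3, and of 32 mitochondria-specific ones 13 and 14. Under the same protein-coding sum the former had 13 lower and 2 higher in ES2 and 13 and 5 in MV3, and the latter 9 and 4 in ES2 and 5 and 6 in MV3. Of all genes, 7.65% were then lower and 17.3% higher in ES2, and 11.5% and 26.9% in MV3. The counts of the mitochondria-specific group in MV3 thus depended on the scaling. Its median there was -0.19 as first scaled and -0.06 after rescaling, against 0.01 and 0.13 for all genes.

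MRPS10 and MRPS30 were lower in all 4 lines, where 2.51% of the 12816 genes tested in every line were. MRPS10, the homolog of bacterial S10 in the head of the small subunit (ENSG00000048544, chr6:42206807-42217861, minus strand, hg38), had the largest or next to largest fall that passed the test in each line. In A549 it stood at 23.4, 24.1 and 25.1 FPKM in siC and 17.4, 16.7 and 13.2 in siI1 libraries. In ES2 it stood at 43.98, 38.86 and 37.1 against 26.2, 23.99 and 24.3. In MV3 it stood at 22.9, 23.6 and 22.8 against 16.4, 16.7 and 16.6. In every line the 3 siI1 libraries lay below all siC libraries, in PANC1 with 49.0, 51.2 and 41.9 against 36.0, 35.5 and 39.0. This gave log2 fold changes of -0.61 ± 0.11 (A549), -0.67 ± 0.07 (ES2), -0.47 ± 0.03 (MV3) and -0.35 ± 0.09 (PANC1), as estimate and SE for n = 3 against 3 libraries, with limma adjusted p of 0.0163, 0.00198, 0.000190 and 0.0290. The test of a difference between the lines gave an adjusted p of 0.0593 for MRPS10.

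MRPS30, the large-subunit protein mL65 (ENSG00000112996, chr5:44808947-44820428, plus strand), also fell in each line, and in ES2 and MV3 by less than MRPS10. It stood at 13.1, 14.9 and 13.1 FPKM in siC and 8.82, 9.18 and 9.78 in siI1 libraries of A549. In ES2 it stood at 15.7, 13.6 and 16.3 against 11.4, 12.7 and 12.2, and in MV3 at 10.2, 10.1 and 9.39 against 7.88, 7.53 and 7.62. In PANC1 it stood at 9.59, 8.81 and 9.14 against 7.17, 7.48 and 7.49. Again no siI1 library reached the lowest siC library. The log2 fold changes were -0.54 ± 0.08, -0.31 ± 0.08, -0.35 ± 0.05 and -0.30 ± 0.06 in A549, ES2, MV3 and PANC1, with limma adjusted p of 0.00945, 0.0402, 0.00210 and 0.0172. Neither gene overlaps another annotated protein-coding or long noncoding RNA gene on either strand. The pair rests on single libraries: without PANC1 siC replicate 1 or siI1 replicate 1 no member was lower in all 4 lines. Without any 1 of the A549 siC libraries, of the ES2 libraries other than siC replicate 2, or of PANC1 siC replicate 2 and siI1 replicates 2 and 3, only 1 was. No member was lower in all 4 lines without the filter on low values or with a replicate block, and 1 was under the same protein-coding sum.

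**Figure D4:**
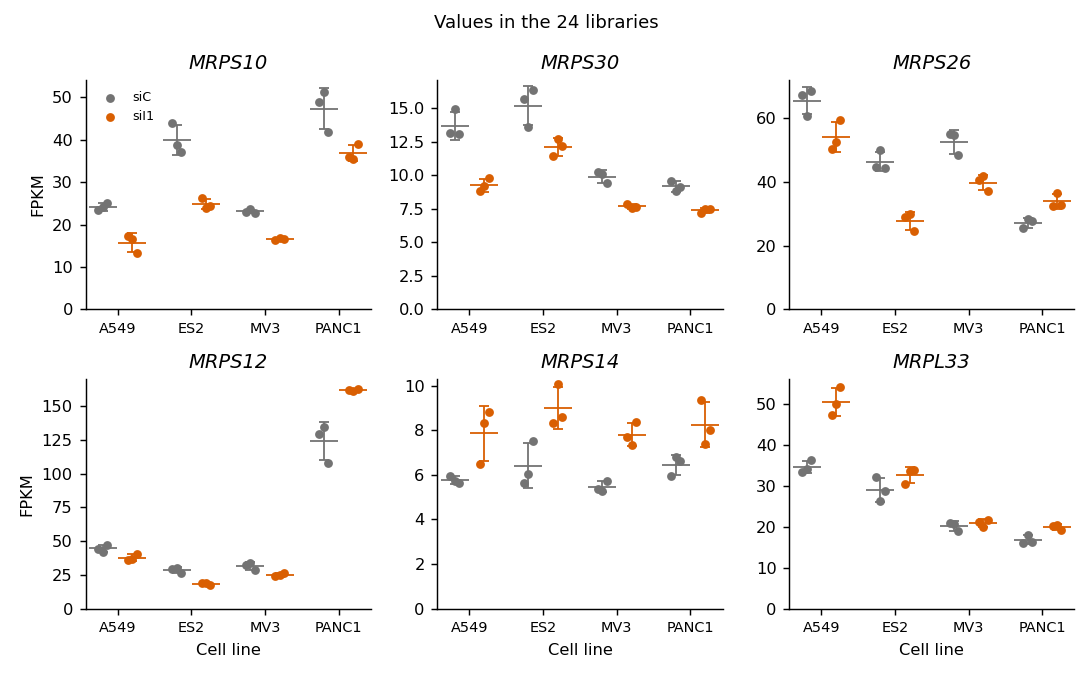
FPKM of 6 of the 78 genes in the 24 libraries (gray siC, orange siI1), with points for libraries and bars for the mean and SD of 3. MRPS10 and MRPS30 are lower after knockdown in all 4 lines, MRPS26 and MRPS12 are lower in ES2 and MV3 and higher in PANC1, and MRPS14 lies higher in each line.

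MRPL16, MRPL35 and MRPS18A were lower in 3 lines. MRPL16, the homolog of bacterial L16, went from 18.2, 18.1 and 17.4 to 12.1, 12.4 and 12.7 FPKM in MV3, a log2 fold change of -0.51 ± 0.04 (limma, adjusted p = 0.000241), and also fell in ES2 (-0.45) and PANC1 (-0.34). MRPL35, of the large subunit, went from 18.1, 15.2 and 16.3 to 12.2, 12.4 and 11.99 FPKM in ES2 (-0.43 ± 0.07, limma, adjusted p = 0.00811), and fell in MV3 (-0.28) and PANC1 (-0.32) with -0.04 in A549. MRPS18A (mL66) went from 20.6, 20.2 and 21.7 to 14.3, 14.04 and 15.6 FPKM in A549 (-0.49 ± 0.06, limma, adjusted p = 0.00626), and fell in ES2 (-0.51) and MV3 (-0.30), while in PANC1 it stood at 24.02, 26.4 and 24.2 against 27.6, 29.8 and 32.6. The ES2 call of MRPS18A was lost without any library other than siI1 replicate 1 (limma adjusted p up to 0.130) and under either rescaling, and its MV3 call without siC replicate 2 (0.0569) and under the same protein-coding sum. The PANC1 calls of MRPL16 and MRPL35 were lost without 5 and 4 of the 6 libraries, MRPL16 keeping its call without siC replicate 3 and MRPL35 without siC replicate 2 or siI1 replicate 1. The 3 PANC1 values of MRPS18A after knockdown lay above all controls without passing the test (0.26 ± 0.08, limma, adjusted p = 0.0508). Its paralogs MRPS18B and MRPS18C, proteins of the small subunit, passed in no line, at siC means of 1.26 to 4.54 FPKM.

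Many of the falls in ES2 and MV3 were in the same genes. Of the 33 lower in ES2 and the 36 lower in MV3, 25 were shared, which is 75.8% of the ES2 list and 69.4% of the MV3 list; over all genes the shared ones made up 68.4% and 44.5%. Log2 fold changes of the 78 had the same sign in 65 genes and a Spearman's rho of 0.67 between these 2 lines, which share no library, against 0.48 over all 12816 genes. Between ES2 and PANC1 the sign was shared by 31 genes and rho was 0.09, against 0.17 over all genes.

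**Figure D5:**
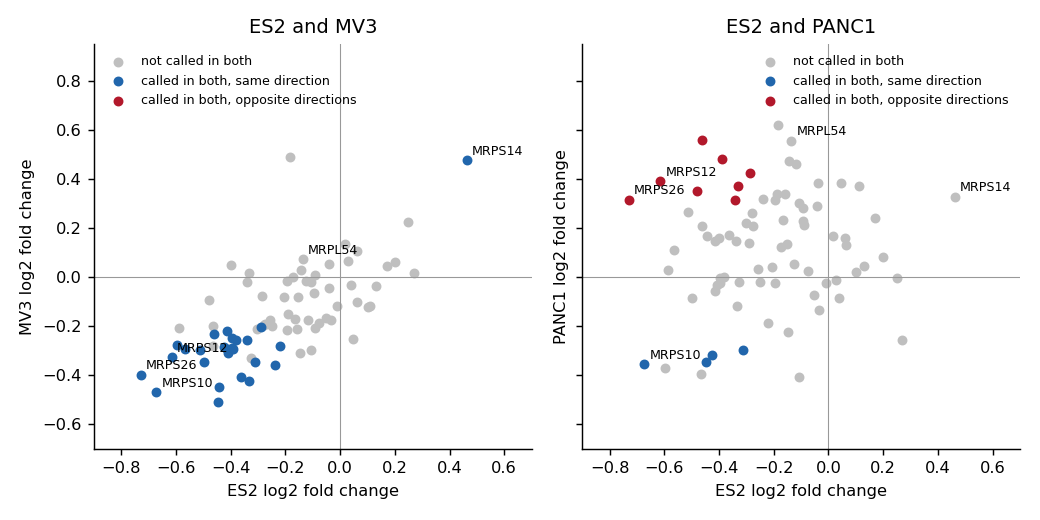
Log2 fold changes of the 78 genes in ES2 (horizontal axis) against MV3 (left) and against PANC1 (right), with blue for genes called in both lines in the same direction and red for opposite directions. ES2 and MV3 share 65 signs, with 64 and 63 of the 78 below 0. MRPS26 and MRPS12 move from the lower left in the left panel to the upper left in the right panel.

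The lines differed in direction for single genes as well. The log2 fold changes differed between the 4 lines for 51 of the 78 members (65.4%), at an adjusted p under 0.05 of Cochran's Q, where 53.3% of all genes differed. A total of 12 members were called in opposite directions in 2 lines, and the share of all genes called so is not given for comparison. Of the 12, 10 were lower in ES2 or MV3 and higher in PANC1: MRPS26, MRPS12, MRPS2, MRPS7, MRPL2, MRPL14, MRPL32, MRPL34, MRPL36 and MRPL41. All 10 have a log2 fold change below 0 in PANC1 under the same sum over all genes, and a value above 0 under every other alternative run. Leaving out 1 library ended the PANC1 call of 8 of the 10, in each case for at least 3 of the 6 libraries, and not that of MRPS7 or MRPL32. Some falls were fragile too. Of 14 alternatives, 8 ended the ES2 call of MRPL2 and 8 its MV3 call. The MV3 call was lost under 6 for MRPL32 and 5 for MRPL14, and the ES2 call of MRPS7 under 2. The falls of MRPS26, MRPS12, MRPS2, MRPL34, MRPL36 and MRPL41 kept their calls under all 14.

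MRPS26, a mitochondria-specific protein of the small subunit (ENSG00000125901, chr20:3046052-3048250, plus strand), showed the clearest opposition. In ES2 it went from 44.8, 49.9 and 44.4 to 29.0, 29.9 and 24.6 FPKM (-0.73 ± 0.09, limma, adjusted p = 0.00260). In MV3 it went from 54.9, 54.6 and 48.3 to 40.4, 41.7 and 37.2 (-0.40 ± 0.07, limma, adjusted p = 0.00472). In PANC1 it went from 25.4, 28.3 and 27.7 to 32.3, 36.6 and 32.7 (0.32 ± 0.07, limma, adjusted p = 0.0230). The ES2 fall is the largest called among the members in any line, and the groups did not overlap in any of these 3 lines. In A549 it stood at 67.2, 60.6 and 68.6 against 50.2, 52.5 and 59.3, lower in all 3 libraries without passing (-0.28 ± 0.08, limma, adjusted p = 0.0757).

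MRPS12 followed the same order. It went from 29.2, 30.5 and 26.4 to 18.8, 19.1 and 17.7 FPKM in ES2 (-0.62 ± 0.07, limma, adjusted p = 0.00182) and from 32.4, 33.9 and 28.8 to 24.1, 24.6 and 26.5 in MV3 (-0.33 ± 0.07, limma, adjusted p = 0.0117). In PANC1, where it was the highest member, its 3 siI1 libraries (162, 161 and 163 FPKM) lay above its siC libraries, of which the lowest was 108 and the highest 135 (0.39 ± 0.09, limma, adjusted p = 0.0233). MRPL41, a mitochondria-specific protein of the large subunit, went from 32.9, 35.1 and 35.4 to 24.5, 25.1 and 25.04 FPKM in ES2 (-0.46 ± 0.04) and from 33.3, 40.0 and 25.9 to 47.6, 44.9 and 52.2 in PANC1 (0.56 ± 0.16). MRPS7, the homolog of bacterial S7, fell in ES2 (-0.29 ± 0.05) and rose in PANC1 (0.42 ± 0.07), there from 23.3, 24.9 and 22.5 to 30.7, 30.6 and 33.9 FPKM. MRPS2 fell in ES2 (-0.39) and MV3 (-0.29) and rose in PANC1 (0.48), and the remaining 5 rose there by 0.31 to 0.38.

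The other pair of opposites set A549 against MV3. MRPL15 rose in A549 from 65.7, 59.3 and 55.4 to 72.5, 76.8 and 71.1 FPKM (0.29 ± 0.07, limma, adjusted p = 0.0479). It fell in MV3 from 50.4, 52.4 and 46.3 to 36.7, 36.3 and 37.8 (-0.42 ± 0.05, limma, adjusted p = 0.00130), and in ES2 from 128, 126 and 126 to 97.7, 101 and 102 (-0.33 ± 0.04, limma, adjusted p = 0.00182). MRPL3, the homolog of bacterial L3, rose in A549 (0.25 ± 0.06) and fell in MV3 (-0.31 ± 0.03) and PANC1 (-0.23 ± 0.05, lost without siC replicate 1 or any siI1 library), with -0.15 in ES2. Both A549 rises rest on every library but 1: leaving out any library other than siC replicate 1 (MRPL15) or siC replicate 2 (MRPL3) ended the call, with limma adjusted p up to 0.139 and 0.112.

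Few members rose in more than 1 line, and none in all 4, where 0.577% of all genes did. MRPS14, the homolog of bacterial S14, was the only member higher in ES2 and the only one higher in MV3. It went from 5.64, 6.05 and 7.54 to 8.32, 10.1 and 8.58 FPKM in ES2 (0.46 ± 0.12, limma, adjusted p = 0.0416) and from 5.38, 5.26 and 5.73 to 7.70, 7.34 and 8.36 in MV3 (0.48 ± 0.06, limma, adjusted p = 0.00182). The ES2 rise did not pass without siC replicates 1 or 2 or any siI1 library. In A549 (0.41 ± 0.12) and PANC1 (0.33 ± 0.10) its siI1 libraries also lay above all siC libraries, with limma adjusted p of 0.0876 and 0.0629. MRPL33, the homolog of bacterial L33, rose in A549 from 33.5, 34.0 and 36.3 to 47.3, 49.9 and 54.1 FPKM (0.54 ± 0.07, limma, adjusted p = 0.00506) and in PANC1 (0.24 ± 0.07), with overlapping groups in ES2 and MV3, and its PANC1 call was lost without any library other than siC replicate 2. MRPL33 overlaps BABAM2 on the same strand, and MRPS14 overlaps CACYBP on the other strand. Whether counting used strand is not given, and the counting of shared reads could not be checked for either gene. MRPL54, a mitochondria-specific protein of the large subunit, rose in PANC1 from 16.3, 18.2 and 18.05 to 24.9, 25.2 and 27.8 (0.56 ± 0.07, limma, adjusted p = 0.00335) and in A549 (0.28 ± 0.07), where leaving out any 1 library ended the call. Of the other members, MRPL1 (0.52, lost without any 1 library) and MRPS28 (0.45, lost without any 1 siI1 library) gave further rises in A549, MRPL57 a fall in MV3 (-0.45) and MRPL19 the largest fall in PANC1 (-0.41). A total of 22 members passed in no line, and the share of all genes that did so is not given for comparison.

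The falls were also counted among members that no other annotated protein-coding or long noncoding RNA gene overlaps. Other gene types, such as pseudogenes, were not searched for overlap. Of the 60 with no overlapping gene on the same strand, 29 were lower in ES2 and 30 in MV3, and of the 34 with none on either strand 17 and 18. Under the same protein-coding sum the 60 had 21 lower and 5 higher in ES2 and 15 and 8 in MV3, and the 34 had 15 and 4 in ES2 and 8 and 2 in MV3. What the members share in length was also set beside the result. Their listed gene length has a median of 2501.5 bases and their longest 3'UTR a median of 570 bases, against 5085.5 and 1521 for protein-coding genes tested in A549. Protein-coding genes between 1697.5 and 3563.25 bases, the middle range of the members' lengths, were lower in 21.5% of cases in ES2 and 27.3% in MV3, below the members' 42.3% and 46.2%. These genes were chosen by length and not by level. The members' median siC levels were 18.2 FPKM in ES2 and 17.6 in MV3, against 6.86 and 7.32 for all protein-coding genes tested. Small changes are more easily called at higher levels. In PANC1 20.1% of such genes were higher, near the members' 20.5%, and their median log2 fold change was 0.08 against 0.14. Within the 78, fold changes in ES2 and MV3 were lower where the siC level was higher (Spearman's rho -0.37 and -0.42), with rho of -0.12 in A549 and 0.03 in PANC1, as a description across genes. The 13 members with AAGATGGCG in the promoter included all 3 that were lower in A549, while 5 of these 13 and 24 of the other 56 matched members were lower in ES2, and 5 and 26 in MV3. In PANC1, 3 of the 13 were lower and 3 higher, and 3 and 12 of the 56. The 13 had lower siC levels, with medians of 6.55 to 9.90 FPKM over the lines against 16.9 to 22.2 for the 56.

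Other parts of the mitochondrial translation machinery were counted from lists of textbook members. Of 5 subunits without an MRP symbol, 3 were lower in ES2 and 2 in MV3, 1 in A549 and 0 in PANC1, where the same sum over all genes gave 5. GADD45GIP1, the large-subunit protein mL64, fell in A549 (-0.44 ± 0.06), ES2 (-0.57 ± 0.10) and MV3 (-0.52 ± 0.05), with 0.14 ± 0.14 in PANC1. AURKAIP1 (-0.46) and CHCHD1 (-0.25) fell in ES2 and DAP3 (-0.23), all of the small subunit, in MV3. Of 23 assembly factors, 10 were lower and 1 was higher in ES2 and in MV3, 1 and 0 in A549, and 4 and 4 in PANC1. Under the same protein-coding sum they were 4 and 2 in ES2 and 6 and 1 in MV3, and under the same sum over all genes 18 and 0 in PANC1. NSUN4, which methylates the small-subunit RNA and joins assembly, fell in all 4 lines (-0.76, -0.50, -0.35 and -0.66 in A549, ES2, MV3 and PANC1). MRM3, which methylates the large-subunit RNA, fell in ES2 (-0.75), MV3 (-0.32) and PANC1 (-0.49), and TFB1M, which methylates the small-subunit RNA, in MV3 (-0.57) and PANC1 (-0.49). YBEY, a ribosome-maturation nuclease, rose in ES2 (0.39), MV3 (0.42) and PANC1 (0.69). MPV17L2, an assembly factor of the large subunit, fell in ES2 (-0.57) and MV3 (-0.22) and rose in PANC1 (0.48).

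Of 14 mitochondrial translation factors, 5 were lower in ES2, 5 in MV3, 4 in PANC1 and 1 in A549, where 1, TSFM (0.35), was higher. Under the same protein-coding sum 2 were lower in ES2 and 3 in MV3, and under the same sum over all genes 12 were lower in PANC1. TUFM, the elongation factor that delivers tRNA, fell in A549 (-0.29), ES2 (-0.47) and MV3 (-0.39), with 0.01 in PANC1. GFM1, the translocase, fell in MV3 (-0.37) and PANC1 (-0.70), and GUF1, a factor related to bacterial LepA, in ES2 (-0.26), MV3 (-0.31) and PANC1 (-0.50). TACO1, the activator of COX1 translation, fell in ES2 (-0.44). Of 16 genes of mitochondrial transcription and RNA processing, 9 were lower in MV3, 3 in ES2, 4 in PANC1 (2 higher) and 1 in A549 (1 higher). Under the same protein-coding sum 4 were lower in MV3 and 2 in ES2, and under the same sum over all genes 12 in PANC1 with 0 higher. TFAM, which packs and transcribes mitochondrial DNA, fell in A549 (-0.91), MV3 (-0.66) and PANC1 (-0.51), with -0.18 in ES2. TFB2M, its partner in transcription, fell in ES2 (-0.50), MV3 (-0.29) and PANC1 (-0.30), and PNPT1, an RNA-degrading enzyme, fell in PANC1 (-0.61) and MV3 (-0.44). HSD17B10, a subunit of the RNase P of mitochondria, rose in A549 (0.32) and PANC1 (0.52), and SLIRP, a stabilizer of mitochondrial mRNAs, rose in PANC1 (0.43) and fell in ES2 (-0.25) and MV3 (-0.15).

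Of the 8 biogenesis regulators that passed the filter, 2 were lower and 1 higher in A549, 2 and 2 in ES2, 4 and 0 in MV3 and 2 and 2 in PANC1, the last turning to 6 and 0 under the same sum over all genes. ESRRA, a nuclear receptor of energy metabolism, fell in A549 (-0.36), ES2 (-0.48) and MV3 (-0.47), and PPRC1, a PGC-1-related coactivator, in A549 (-0.32), ES2 (-0.42) and MV3 (-0.50). YY1 mRNA rose in ES2 (0.28) and PANC1 (0.25), GABPA in ES2 (0.32), and MYC fell in MV3 (-0.48) and rose in A549 (0.26) and PANC1 (0.37). NRF1 fell in PANC1 (-0.38), and GABPB1 in PANC1 (-0.39) and MV3 (-0.23).

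The same counts were made for 2 larger families of nuclear genes whose products also work in complexes. Of the 82 or 83 cytosolic ribosomal protein mRNAs tested per line, 4 were lower and 13 higher in ES2 and 18 lower and 0 higher in MV3, with medians of 0.00 and -0.08. Under the same protein-coding sum the MV3 counts turned to 3 lower and 27 higher, where 26.9% of all genes were higher. In A549 and PANC1 they rose, 47 and 56 of 82 with 0 lower, at medians of 0.29 and 0.47, and in PANC1 they turned to 34 lower and 0 higher under the same sum over all genes. Of the 79 or 80 nuclear subunits of oxidative phosphorylation tested, 14 were lower and 4 higher in ES2, 15 and 7 in MV3, 4 and 3 in A549, and 1 and 36 in PANC1. Under the same protein-coding sum ES2 turned to 6 lower and 17 higher and MV3 to 3 and 30. Of all genes, 17.3% and 26.9% were then higher in these 2 lines. Under the same sum over all genes PANC1 turned to 37 lower and 0 higher. COX4I1, a subunit of cytochrome c oxidase, fell in all 4 lines (-0.91, -0.92, -0.63 and -0.54). Differences between the members and these families were not tested. The 6 proliferation genes, which mark dividing cells, moved in part with the members: 2 were lower in ES2 and 6 in MV3, but also 6 in PANC1 and 3 in A549, where the members did not fall, and their part in the result was not tested.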

How the data were processed

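Total RNA was depleted of ribosomal RNA and sequenced. The submitters' processing notes name cutadapt 1.14, HISAT2 2.1.0, SAMtools 1.5, featureCounts 1.5.3, edgeR 3.30.3 and hg38, and whether counting used strand is not given in the sources used here. The deposited values are FPKM, which the authors computed per line from TMM-scaled library totals and the listed gene length (a deposited column in bases); this unit was worked out from the values. The authors' log2 fold change, p-value and FDR columns were not used. From each value whole reads were recovered within 0.02 of a read.

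In each line, genes whose mean reached 0.5 FPKM were tested as log2(FPKM + 0.5) with limma 3.58.1 (R 4.3.3, trended variance, two-sided, Benjamini-Hochberg, 0.05), so that folds of low genes are understated. Differences between lines were tested by Cochran's Q against an F distribution, adjusted over 12816 genes. On simulated data with known changes, false calls made up more of limma's calls than the threshold allows; nearly all were genes with few reads, which enter the shares over all genes, and none was a member. Most small changes put into the simulated data were missed. The simulation held fewer changed genes than were called here and the same spread setting for every gene, so its rates need not hold for the real libraries. Members not called are not shown to be unchanged. The libraries are labeled as replicates, biological ones per the methods. Named members were the 3 largest falls and rises per line at a mean of at least 1 FPKM, those called in 3 lines or in opposite directions, the extremes in level and the MRPS18 family. Alternatives were other pseudocounts, filters and scalings, voom on recovered reads, a replicate block and leaving out each library. Members and lists were chosen with earlier results of these data known, and overlaps, lengths and promoter letters were described with the members' values in view. Annotation is from GENCODE release 44. Libraries of other cell lines were not analyzed here.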

Additional observations from a re-analysis of the deposited data

Results flagged for a closer look

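For 21 of the named members the log2 fold change differed between the 4 lines, by Cochran's Q adjusted over all genes tested in every line. The members called in opposite directions gave adjusted p of 2.46e-07 for MRPS26, 8.49e-07 for MRPS12, 1.12e-06 for MRPS7, 1.27e-06 for MRPL3, 1.47e-06 for MRPL15, 3.51e-06 for MRPL32 and 6.22e-06 for MRPL36. Further down the same list stood MRPL34 with 9.06e-06, MRPL41 with 7.74e-05, MRPS2 with 8.78e-05, MRPL2 with 0.000114 and MRPL14 with 0.000187. MRPS18A, lower in 3 lines and at 0.26 in PANC1, gave 6.68e-06.

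Members that passed in 1 direction differed in size between lines. MRPL54 gave 0.000220, MRPL33 0.000375, MRPL57 0.000768, MRPS28 0.00345, MRPL1 0.00455, MRPS34 0.0116, MRPL51 0.0283 and MRPL19 0.0478. MRPS30 (0.175), MRPL16 (0.464) and MRPS14 (0.699) did not pass, which does not show that their responses were alike.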

How the results depend on the processing

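The median over all 78 genes stayed below 0 in ES2 and MV3 under every alternative run, and no member was higher in all 4 lines under any. The small-subunit medians did not stay below 0 under the same protein-coding sum, where the medians of all genes were 0.11 and 0.13. Without a filter the counts were 4 higher in A549, 0 higher in ES2, 10 higher in PANC1 and 0 lower in all 4 lines. With the same sum over all genes A549 had 6 lower and 2 higher, ES2 20 lower and 0 higher (median -0.14), PANC1 56 lower and 0 higher (median -0.58), and 4 were lower in all 4 lines. In PANC1 that scaling turned MRPL33 to -0.50, MRPS26 to -0.43, MRPS12 to -0.36, MRPL41 to -0.19, MRPL54 to -0.18, MRPS2 to -0.25, MRPL14 to -0.41, MRPL2 to -0.41, MRPL32 to -0.35, MRPL34 to -0.36, MRPL36 to -0.39 and MRPS7 to -0.32. With the same protein-coding sum, chosen after seeing the data, ES2 had 6 higher (median -0.077), MV3 18 lower and 11 higher (median -0.062), and 1 was lower in all 4 lines. Of all genes, 17.3% were then higher in ES2 and 26.9% in MV3. With voom on recovered reads 8 were lower in A549, and 2 were higher in ES2 and 2 in MV3. Over the named members 670 alternative values kept their call, 186 lost it and 12 turned.

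Replicate numbers do not pair the samples: same-numbered siC and siI1 libraries had correlations of deviations from -0.0562 to 0.0711. With the replicate block A549 had 1 lower and 1 higher, ES2 0 higher, PANC1 4 lower, and 0 were lower in all 4 lines.

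Leaving out 1 library gave 2 to 4 lower, 2 to 5 higher and a median of -0.02 to 0.04 in A549, and 27 to 31 lower, 0 to 1 higher and -0.26 to -0.18 in ES2. It gave 26 to 38 lower, 1 to 2 higher and -0.23 to -0.16 in MV3, and 1 to 5 lower, 6 to 22 higher and 0.065 to 0.19 in PANC1. It left 0 to 2 lower and 0 to 0 higher in all 4 lines, and 46 to 55 members that differed between lines. In each of these fits of a line a smaller share of all genes was lower than with every library. Apart from scaling, the causes were not tested. MRPL53 in A549 had 3 to 12 reads per library, and its -0.62 did not pass (limma, adjusted p = 0.175).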

Other observations

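Of 67 listed pseudogenes of the members, 1 held more than 10% as many reads as its parent gene. MRPL45P2 held from 35.6% of the reads of MRPL45 in A549 to 77.4% in PANC1, so the falls of MRPL45 in ES2 (-0.40) and MV3 (-0.29) are uncertain, since the counting could split reads between near-identical copies. MRPS36, whose product belongs to the oxoglutarate dehydrogenase complex, passed in no line, with log2 fold changes of 0.15, -0.20, -0.02 and 0.31 in A549, ES2, MV3 and PANC1.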
